A study of Drosophila melanogaster with 16 samples.

Results

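The elements ‘412’ (a name and not a number), blood, Stalker, Stalker2 and Stalker4 are LTR retrotransposons of Drosophila melanogaster. They were taken by the names of their rows, 5 of the 119 transposon families in the RNA-seq table, 5 of 122 in the GRO-seq table and 5 of 125 in the ChIP-seq table. All 5 passed the filters on low values on both strands and in all assays. The samples were whole ovaries of flies aged 3 to 5 days and kept at 25 degrees, in which either piwi or white was knocked down. Tj-GAL4->piwi was set against Tj-GAL4->white, and nos-GAL4->piwi against nos-GAL4->white, so control flies carried a GAL4 driver and a knockdown too. Each of these 4 conditions had 1 sample of total RNA (RNA-seq, from 150 ng), 1 of run-on RNA from nuclei of about 100 ovaries (GRO-seq), and 1 H3K9me3 and 1 input library from chromatin of 50 ovaries, 16 samples in all.

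LTR retrotransposons copy themselves through a full-length sense RNA that is translated and reverse transcribed. In the ovary they are held down by piRNAs, small RNAs mostly antisense to transposons, which guide the nuclear Argonaute protein Piwi to nascent transposon transcripts. Piwi-dependent silencing is known to act on transcription and to go with H3K9me3, a histone mark of silent chromatin. The Tj driver is active in the somatic cells that surround the germ cells and the nos driver in the germ cells themselves. ‘412’, blood and the Stalker elements belong to the Ty3/gypsy superfamily, and ‘412’ is known for its RNA in the mesoderm of the embryonic gonad. The blood element takes its name from an insertion allele of the white gene.

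Each condition had 1 value, so no difference below has a replicate check and no test over samples could be made. The series text names 2 RNA-seq replicates, while the table analysed gives 1 column per condition and strand, without a spread. Values are in RPM, the reads-per-million scale, and are not divided by length, so levels were compared within an element and not between elements. RNA ratios were taken after adding 1 RPM to both values, so those of elements with few reads come out too small. The read totals behind the RNA-seq and GRO-seq values were not recovered here and their depth is unknown. The 8 ChIP-seq libraries held 2514000 to 3047000 reads, with 1290 to 9942 reads for a member in a library. RNA of piwi and white was not analysed, so the knockdowns were not checked. Whole ovaries hold somatic and germ cells together, and fewer cells of a type cannot be told apart from less RNA or less of the mark per cell.

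With Piwi knocked down in the somatic cells, steady-state sense RNA of all 5 elements was at least 2-fold above the control, as was that of 38.9% of the 113 elements that passed the filter. Sense RNA of ‘412’ was 847.9 RPM in Tj piwi knockdown against 97.2 RPM in Tj white knockdown, an 8.64-fold ratio. That of blood was 828 RPM in Tj piwi knockdown against 72.2 RPM in Tj white knockdown, or 11.3-fold. Stalker2 had the largest ratio of the 5, with 76.6 RPM in Tj piwi knockdown against 5.34 RPM in Tj white knockdown, or 12.2-fold. Stalker and Stalker4 moved by nearly the same factor. Stalker was at 68.3 RPM in Tj piwi knockdown against 10.1 RPM in Tj white knockdown (6.21-fold), and Stalker4 at 75.2 RPM in Tj piwi knockdown against 11.3 RPM in Tj white knockdown (6.17-fold). The 5 ratios stood between the 9th and the 16th highest of the 113 elements, and their median log2 ratio was 3.11 beside 0.69 for all elements. After subtracting that common shift of 0.69, all 5 members were still at least 2-fold higher, beside 21.2% of all elements.

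With Piwi knocked down in the germ cells, sense RNA of all 5 was again at least 2-fold above the control, but so was that of 52.2% of the elements. The blood element stood out among the 5. Its sense RNA was 2577 RPM in nos piwi knockdown against 163 RPM in nos white knockdown, or 15.7-fold, the 20th highest ratio of 113. The ratio of ‘412’ was 4.33-fold, from 342 RPM in nos piwi knockdown and 78.3 RPM in nos white knockdown. Stalker had 29.2 RPM in nos piwi knockdown against 6.40 RPM in nos white knockdown (4.08-fold). Stalker2 had 43.2 RPM in nos piwi against 9.87 RPM in nos white knockdown (4.06-fold), and Stalker4 had 25.1 RPM in nos piwi against 7.06 RPM in nos white knockdown (3.23-fold). These 4 ratios ranked 37th to 49th of 113, all above the median element. The median log2 ratio was 2.03 for the members and 1.10 for all elements, and after subtracting that shift ‘412’ (2.02-fold) and blood (7.35-fold) were the members still past 2-fold, beside 33.6% of all elements.

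**Figure D1:**
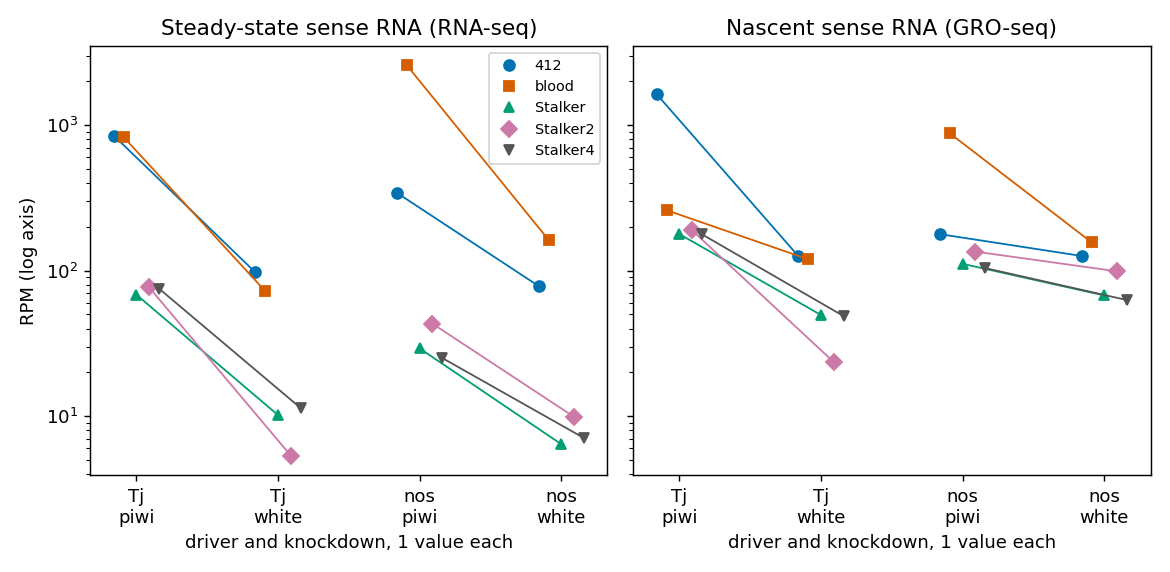
Sense RNA of the 5 elements in RPM on a log axis, by RNA-seq on the left and GRO-seq on the right, with 1 value for each driver and knockdown and a line joining the piwi and white knockdowns of a driver. In RNA-seq all lines slope down to the white knockdown, and in GRO-seq ‘412’ is at 1631 RPM in Tj piwi knockdown and blood at 878 RPM in nos piwi knockdown, far above their controls.

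GRO-seq measures RNA being made by polymerases engaged in the nuclei. Under the Tj driver, nascent sense RNA of all 5 members was at least 2-fold above the control, compared with 21.3% of 122 elements. Nascent sense RNA of ‘412’ was 1631 RPM in Tj piwi knockdown against 126 RPM in Tj white knockdown. This 12.9-fold ratio was the 5th highest of all elements. Stalker2 followed at 7.75-fold, with 188.9 RPM in Tj piwi knockdown against 23.5 RPM in Tj white knockdown. Stalker was at 178 RPM in Tj piwi knockdown against 49.5 RPM in Tj white knockdown (3.55-fold), and Stalker4 at 178 RPM in Tj piwi against 48.6 RPM in Tj white knockdown (3.60-fold). The blood element had the smallest nascent ratio, 2.17-fold, with 260.3 RPM in Tj piwi knockdown against 119.6 RPM in Tj white knockdown. After subtracting the median log2 ratio of all elements, 0.38, blood was at 1.66-fold and the other 4 stayed above 2-fold, beside 13.1% of all elements.

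Under the nos driver blood had the largest nascent ratio of the 5 in place of the smallest. Nascent sense RNA of blood was 878 RPM in nos piwi knockdown against 157 RPM in nos white knockdown, a 5.58-fold ratio that was the 8th highest of 122. The other 4 members were below 2-fold, a size that 34.4% of all elements reached. For ‘412’ the values were 178 RPM in nos piwi knockdown and 126 RPM in nos white knockdown (1.41-fold). For Stalker2 they were 135 RPM in nos piwi knockdown and 98.9 RPM in nos white knockdown (1.36-fold). Stalker was at 1.64-fold and Stalker4 at 1.65-fold. The median element had a ratio of 1.43-fold, so ‘412’ and Stalker2 lay just below the middle of the table and Stalker and Stalker4 just above it. Relative to that median blood was at 3.89-fold, the only member past 2-fold, beside 22.1% of all elements.

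The responses to the 2 drivers were then set against each other, each driver with its own control. In GRO-seq, the Tj fold of ‘412’ was 9.14 times its nos fold, the 3rd largest excess under Tj of 122 elements, and that of Stalker2 was 5.69 times, the 7th largest. Stalker and Stalker4 had Tj folds 2.17 and 2.18 times their nos folds. Of all elements, 13.9% had a Tj fold at least 2 times the nos fold. The blood element lay on the other side, with a Tj fold 0.388 times its nos fold, and 20.5% of elements had a nos fold at least 2 times the Tj fold. In RNA-seq the range was narrower and Stalker2, not ‘412’, had the largest excess under Tj. The Tj fold was 3.01 times the nos fold for Stalker2, 2.0 times for ‘412’, 1.91 times for Stalker4, 1.52 times for Stalker and 0.719 times for blood. Stalker2 was the only member whose Tj fold reached 2 times its nos fold in RNA-seq, ‘412’ lying just under it, beside 14.2% of elements, and no member reached it in the opposite direction, beside 36.3%. These differences between drivers have no replicates and were not tested.

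The controls of the 2 drivers were not at the same level for every member. Nascent sense RNA of ‘412’ was 126 RPM in both Tj white and nos white knockdown. That of Stalker2 was 23.5 RPM in Tj white knockdown and 98.9 RPM in nos white knockdown, 0.237 times, while its input DNA was 0.758 times. The large Tj ratio of Stalker2 thus started from the lower of its controls. Steady-state sense RNA of blood was 72.2 RPM in Tj white knockdown and 163 RPM in nos white knockdown, 0.444 times, with input at 0.769 times. The part that the level of the controls has in the difference between drivers was not tested.

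**Figure D2:**
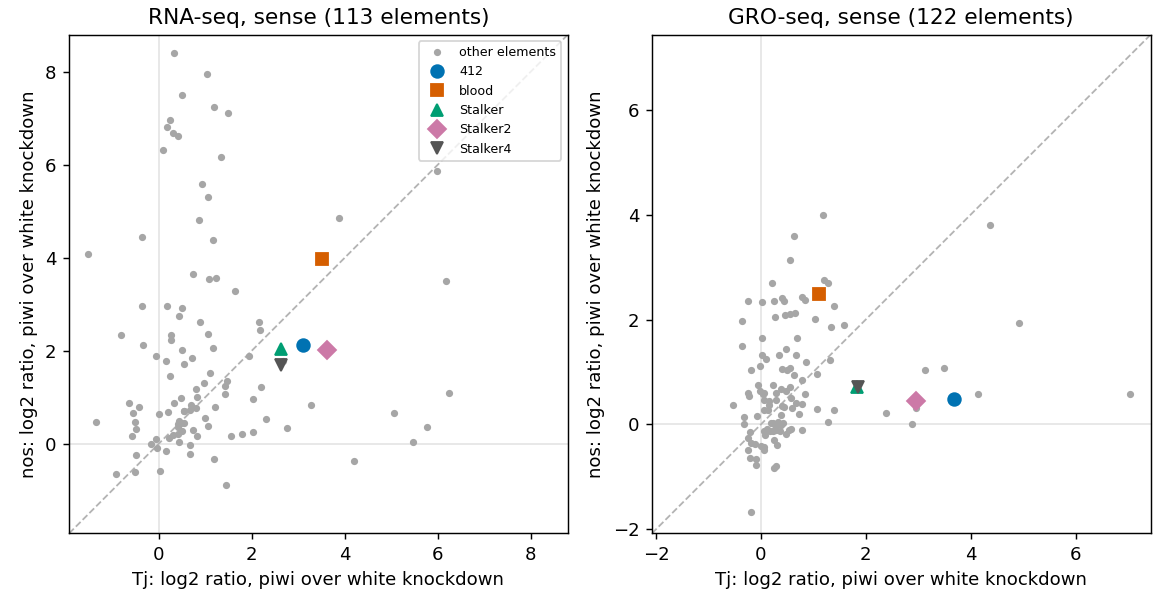
Log2 ratio of sense RNA in piwi over white knockdown under the nos driver (vertical axis) against the Tj driver (horizontal axis) for each element that passed the filter, 113 in RNA-seq (left) and 122 in GRO-seq (right), with the dashed line marking equal ratios. In GRO-seq ‘412’ (3.69 under Tj and 0.49 under nos) and Stalker2 (2.95 under Tj and 0.45 under nos) lie far to the right of the line and blood (1.12 under Tj and 2.48 under nos) above it.

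Steady-state and nascent ratios of one element differed in both directions. For ‘412’ under Tj the nascent fold was 1.49 times the steady-state fold, an order seen in 31% of 113 elements. For blood under Tj the steady-state fold was 5.22 times the nascent fold, the 6th largest excess of all elements. Stalker, Stalker2 and Stalker4 had steady-state folds 1.58 to 1.75 times their nascent folds under Tj. Under nos the steady-state fold was the larger for all 5, by 3.07 times for ‘412’, 2.98 times for Stalker2, 2.82 times for blood, 2.49 times for Stalker and 1.96 times for Stalker4. The nascent fold was the larger for 18.6% of elements under nos. The median gap of all elements, steady-state minus nascent log2 ratio, was 0.28 under Tj and 0.73 under nos. In this gap the 5 members ranked 27th to 46th highest of 113 elements under nos. The assays were scaled separately, so a gap between the ratios was not assigned to a step after transcription.

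Which strand carried the RNA differed among the members. In the control knockdowns most nascent RNA of ‘412’ was antisense. Its sense share was 17.0% in Tj white and 21.3% in nos white knockdown, beside a median element at 39.8% and 44.2%. In Tj piwi knockdown the share of sense reads of ‘412’ was 73.3%, against 17.0% in Tj white knockdown, so the strand with more RNA changed. Its antisense nascent RNA was 593 RPM in Tj piwi knockdown against 614 RPM in Tj white knockdown, so the change in share came from the sense strand. Under nos, antisense nascent RNA of ‘412’ was 343 RPM in piwi knockdown against 467 RPM in white knockdown, 0.736 times, and its sense share was 34.2% in nos piwi against 21.3% in nos white knockdown. ‘412’ had the lowest antisense nascent ratios of the 5, and ranked 103rd of 122 elements under Tj and 108th under nos.

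Nascent sense RNA of Stalker2 made up 53.7% in Tj piwi knockdown against 15.5% in Tj white knockdown, but 56.0% in nos piwi against 51.5% in nos white knockdown. For blood the sense share was 50.6% in Tj piwi against 40.4% in Tj white knockdown, and 87.1% in nos piwi against 59.1% in nos white knockdown. Stalker and Stalker4 were mostly antisense in all 4 GRO-seq libraries. The sense share of Stalker was 38.6% in Tj piwi against 25.6% in Tj white knockdown, and 35.9% in nos piwi against 36.6% in nos white knockdown. Their antisense nascent RNA was itself above the control, at 1.96-fold for Stalker and 1.98-fold for Stalker4 under Tj, and at 1.70-fold and 1.76-fold under nos. No member reached 2-fold on the antisense nascent strand under either driver, a size that 13.9% of elements reached under Tj and 14.8% under nos.

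For ‘412’ and blood, antisense steady-state RNA moved more than antisense nascent RNA. For blood it was 104 RPM in Tj piwi knockdown against 15.9 RPM in Tj white knockdown (6.25-fold), and 351 RPM in nos piwi knockdown against 16.8 RPM in nos white knockdown (19.7-fold). The 6.25-fold ratio was the 5th highest of 109 elements under Tj and the 19.7-fold ratio the 9th highest under nos. For ‘412’ it was 135 RPM in Tj piwi knockdown against 38.8 RPM in Tj white knockdown (3.41-fold), and 78.6 RPM in nos piwi knockdown against 21.8 RPM in nos white knockdown (3.48-fold). The antisense nascent RNA of both elements had moved by less than 1.5-fold. In Tj ovaries 2 of the 5 members were at least 2-fold higher on this strand, beside 17.4% of all elements, and in nos ovaries 3 of 5, beside 48.6%. The third under nos was Stalker at 2.06-fold, from 16.9 RPM in nos piwi and 7.71 RPM in nos white knockdown. With a pseudocount of 5 RPM Stalker was below 2-fold, at 0.79 on the log2 scale, which left 2 of 5. After centring on the median element, 2 members were past 2-fold under Tj, beside 10.1% of elements, and 1, blood, under nos, beside 22% of elements.

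Stalker2 was the one member with mostly antisense steady-state RNA in both controls. Stalker and Stalker4 came close to an even split in nos white knockdown, at 45.4% and 48.4% sense. Antisense RNA of Stalker2 was 50.0 RPM in Tj piwi against 39.0 RPM in Tj white knockdown and 45.2 RPM in nos piwi against 35.6 RPM in nos white knockdown, ratios of 1.27 and 1.26. Because its sense RNA differed far more, the sense share was 60.5% in Tj piwi against 12.0% in Tj white knockdown, and 48.9% in nos piwi against 21.7% in nos white knockdown. The blood element, in contrast, was 82.0% to 90.6% sense in all 4 RNA-seq columns.

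**Figure D3:**
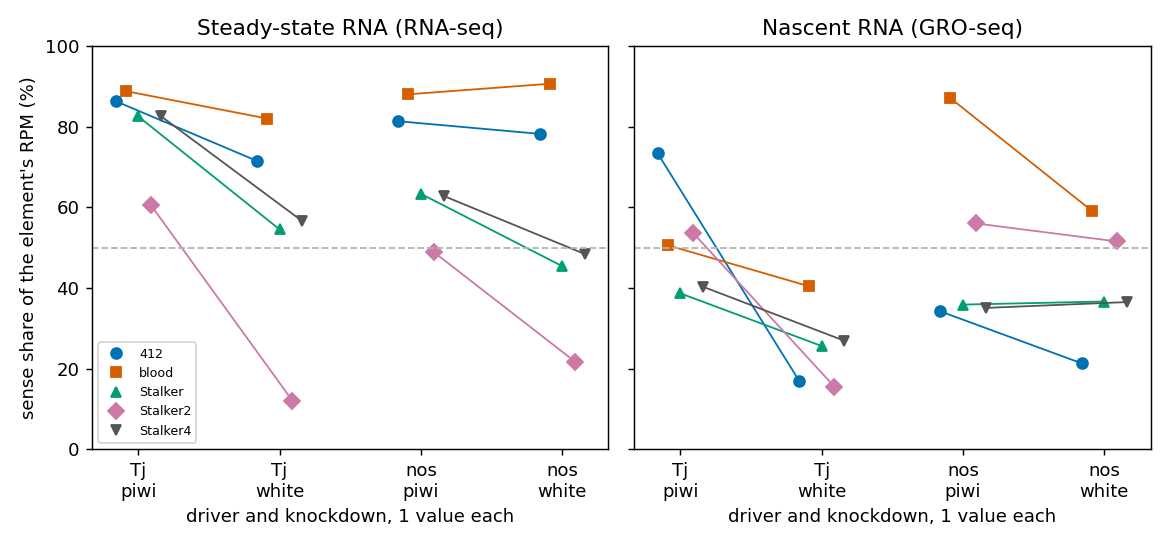
Share of each element's RPM that is sense, in percent, in RNA-seq (left) and GRO-seq (right), with 1 value for each driver and knockdown, a line joining the knockdowns of a driver and a dashed line at 50%. In GRO-seq ‘412’ is at 73.3% in Tj piwi and 17.0% in Tj white knockdown, and in RNA-seq Stalker2 is at 60.5% in Tj piwi and 12.0% in Tj white knockdown.

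Input reads follow the amount of an element's DNA in the flies compared. The 3 Stalker elements had more input in the piwi than in the white knockdowns, Stalker2 the most, with 672 RPM in Tj piwi against 506 RPM in Tj white knockdown (ratio 1.33, 95% counting interval 1.24 to 1.43) and 886 RPM in nos piwi against 668 RPM in nos white knockdown (1.33, 1.25 to 1.41). Stalker was at 1.16 (1.10 to 1.21) under Tj and 1.24 (1.18 to 1.30) under nos. The blood element had less input, at 0.901 (0.861 to 0.943) under Tj and 0.929 (0.893 to 0.967) under nos. For ‘412’ the input ratio was 1.10 (1.06 to 1.14) under Tj and 1.03 (0.988 to 1.07) under nos. The interval lay above 1 for 4 members under Tj, beside 43% of 114 elements, and for 3 under nos, beside 59.1% of 115. That of blood lay below 1 under both drivers, beside 10.5% of elements under Tj and 6.96% under nos. The median element itself had an input ratio of 1.08 under Tj and 1.13 under nos. Relative to that element ‘412’ was at 1.02 under Tj and 0.908 under nos. After this centring the intervals of 3 members, the Stalker elements, lay above 1 under each driver, with no share of all elements to set beside this count. Counted from the lowest, their input ratios ranked 77th to 102nd of 114 elements under Tj and 86th to 103rd of 115 under nos. For ‘412’ and the 3 Stalker elements the input ratios were smaller than their sense RNA ratios in both assays and under both drivers, and dividing by them moved no member across 2-fold on the sense strand. The nascent ratio of Stalker2 under nos, 1.36, was close to its input ratio of 1.33, and division left a log2 ratio of 0.038, against 0.45 before it. The nascent log2 ratios of Stalker and Stalker4 under nos were both 0.40 after division, against 0.71 and 0.72 before it. Intervals cover counting error only, since the reads carry no molecular identifiers and copies of 1 molecule cannot be told apart.

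In the control ovaries ‘412’ and blood carried less H3K9me3 over input than most elements. In Tj white knockdown the enrichment of ‘412’ was 1.46 (1.41 to 1.51), the 16th lowest of 114 elements, and that of blood 1.80 (1.73 to 1.87), beside a median element at 3.33. The Stalker elements were closer to the middle, at 2.42 for Stalker2, 2.64 for Stalker4 and 3.01 for Stalker. In nos white knockdown the values were 1.35 for ‘412’, 1.44 for blood, 1.78 for Stalker2, 2.24 for Stalker4 and 2.60 for Stalker, with the median at 2.96. The 5 elements had the same order in both control lines.

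Under Tj, H3K9me3 over input was lower in piwi than in white knockdown for all 5 members by the totals of the transposon table. The enrichment of ‘412’ was 1.17 in Tj piwi against 1.46 in Tj white knockdown, a ratio of 0.803 (95% counting interval 0.765 to 0.843). Stalker2 was at 0.800 (0.735 to 0.870), blood at 0.842 (0.796 to 0.891), Stalker4 at 0.862 (0.812 to 0.915) and Stalker at 0.869 (0.821 to 0.921). All 5 intervals lay below 1, as did those of 47.4% of elements, and the median element was at 0.909. The authors' deposited ratio of H3K9me3 enrichments, piwi over white knockdown, gave the same 5 values. The direction below 1 still rests on the scaling. The fold of H3K9me3 in the authors' deposited tables was 1.19 times the ratio of the RPM values for every element under Tj, and with that scaling 0 of the 5 intervals lay below 1, beside 8.77% of elements, and the ratios ran from 0.953 for Stalker2 to 1.04 for Stalker. Without input, blood was the lowest of the 5 at 0.758, the 4th lowest of 114 elements, and ‘412’ was at 0.885, while Stalker and Stalker4 were both at 1.0 and Stalker2 at 1.06, and 2 of the 5 intervals lay below 1, beside 37.7% of elements. Over input and relative to the median element, which no scaling moves, ‘412’ (0.883) and Stalker2 (0.880) were the lowest of the 5. Without input and relative to the median element, blood was at 0.771, ‘412’ at 0.901 and Stalker2 at 1.08.

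Under nos, blood had the lowest ratio of the 5. Its enrichment was 1.02 in nos piwi knockdown against 1.44 in nos white knockdown, a ratio of 0.713 (0.676 to 0.753), the 16th lowest of 115 elements. The ratio was 0.919 for ‘412’ (0.874 to 0.966), 0.889 for Stalker2 (0.823 to 0.961), 0.933 for Stalker (0.882 to 0.987) and 0.952 for Stalker4 (0.897 to 1.01). Thus 4 of 5 intervals lay below 1, beside 60.9% of elements, and the median element was at 0.888. Relative to that element blood was at 0.804 and the other 4 between 1.0 and 1.07. The ratio of blood also stayed below 1 without input, at 0.663, and with the scaling of the authors' fold, at 0.598. Without input 2 of the 5 intervals lay below 1, beside 38.3% of elements. Over input and with the scaling of the authors' fold all 5 did, beside 84.3%. The authors' H3K9me3 fold itself takes no input, and the input ratio of blood under nos was 0.929. Each condition had 1 H3K9me3 library, so the authors' p-values cannot measure the spread between ovaries. In the authors' deposited table for nos, blood had an H3K9me3 fold of 0.556 with an adjusted p of 3.2e-07, among 15.2% of elements listed as lower at an adjusted p below 0.05, beside 0.8% listed as higher. The adjusted p of ‘412’ in the authors' deposited table was 0.0791, and those of the Stalker elements were 0.876 to 0.968. In the authors' deposited table for Tj none of the 5 passed, with adjusted p-values of 0.156 to 0.703, beside 12.8% of elements listed as higher and 0.8% as lower.

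**Figure D4:**
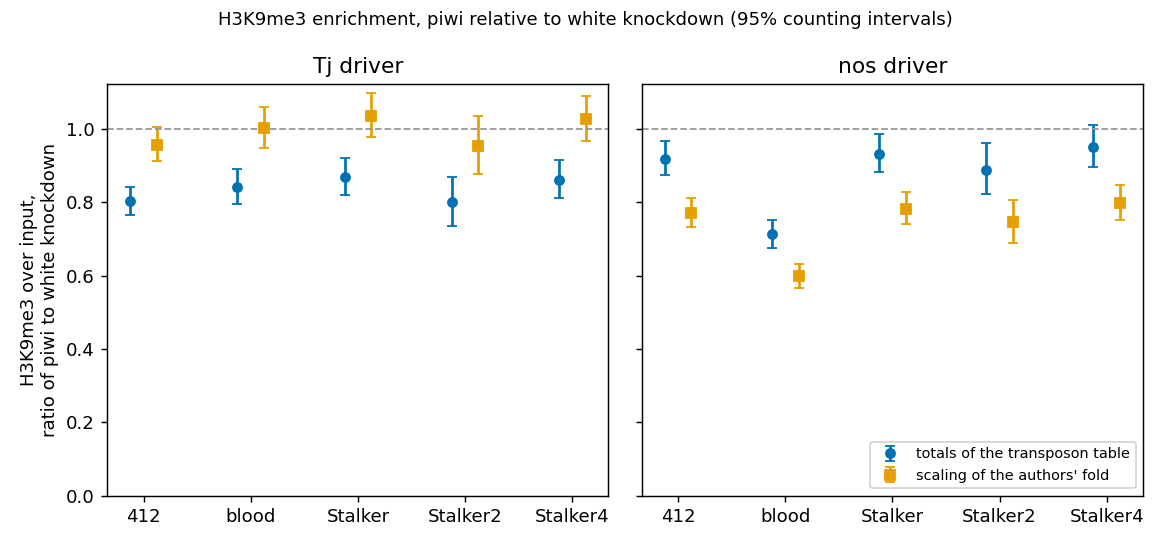
Enrichment of H3K9me3 (over input) of the 5 elements, as the ratio of piwi to white knockdown, under the Tj driver (left) and the nos driver (right), with 95% counting intervals, by the totals of the transposon table (circles) and by the scaling of the authors' fold (squares). Under nos blood is the lowest by both, at 0.713 and 0.598, while under Tj the circles lie below the line at 1 and the squares around it.

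Set side by side, the members with the largest nascent ratios had the lowest ratios of H3K9me3 over input under each driver, but under Tj this did not hold without input. Under Tj these were ‘412’ and Stalker2, with nascent folds of 12.9 and 7.75 and H3K9me3 ratios of 0.803 and 0.800. Under nos it was blood, with a nascent fold of 5.58 and an H3K9me3 ratio of 0.713. Without input, Stalker2 had the highest H3K9me3 ratio of the 5 under Tj, at 1.06, and blood, with the smallest nascent fold, the lowest, at 0.758. The order of the other members over input did not follow the nascent ratios under Tj. There blood had the smallest nascent fold and an H3K9me3 ratio of 0.842, below those of Stalker and Stalker4. The counting interval of blood under Tj overlapped those of all the other members, ‘412’ and Stalker2 among them, so its place in the order was not resolved. Under nos the members other than blood ran the opposite way. Their H3K9me3 ratios over input rose with the nascent folds, from 0.889 and 1.36 for Stalker2 to 0.952 and 1.65 for Stalker4. The counting intervals of these members all overlapped, so their order was not resolved. It did not hold without input either, where Stalker2 was at 1.18 and ‘412’ at 0.943. The 5 values per driver share their libraries and are given as a description.

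Patterns were compared over the 4 sense log2 ratios of RNA-seq and GRO-seq, by Euclidean distance among 113 elements. The nearest element to ‘412’ was Stalker2 and the nearest to Stalker2 was ‘412’, at a distance of 0.89. Stalker and Stalker4 were nearest to each other at 0.34. Next to both came ‘297’, an LTR element of the same superfamily, at 1.01 from Stalker and 1.02 from Stalker4. The 3rd nearest was Quasimodo for Stalker, at 1.38, and hobo for Stalker4, at 1.24. The nearest element to blood was HMS-Beagle, another LTR element, at 1.0. Its steady-state sense ratios were 14.6-fold under Tj and 29.1-fold under nos, and its nascent sense ratios 2.43-fold and 6.49-fold, so it too responded under both drivers. After HMS-Beagle came micropia at 2.01 and Idefix at 2.05, so no other member was among the 3 nearest elements to blood.

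The ratio of the RPM of Stalker to that of Stalker4 varied little between libraries. It holds any difference in their lengths, which is the same in every library, and was 0.895 to 1.22 over all 24 values, counting both strands of RNA-seq and GRO-seq and the input and H3K9me3 libraries. Over the same 24 values the RPM of Stalker was 0.217 to 2.65 times that of Stalker2. How reads that match more than one family were counted was not given in the sources used here, so whether Stalker and Stalker4 are independent observations is unknown.

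Among 21 other Ty3/gypsy LTR elements listed for comparison, 18 had at least 2-fold more steady-state sense RNA under Tj and 12 under nos, with median log2 ratios of 2.16 and 1.34. In GRO-seq 14 and 12 of the 21 reached that size, with medians of 1.32 and 1.07. The list is a choice of names and leaves out other gypsy elements, which lay on both sides of 2-fold under Tj in RNA-seq. Its counts are thus not a rate for the superfamily. The 5 members had medians of 1.85 under Tj and 0.71 under nos in GRO-seq. The related element mdg1 resembled ‘412’ in GRO-seq, with nascent sense RNA of 1306 RPM in Tj piwi against 73.0 RPM in Tj white knockdown (17.7-fold) and 1.5-fold under nos, but its steady-state sense RNA was 2.08-fold under Tj and 1.30-fold under nos. ZAM, an element of the somatic cells, had a nascent ratio of 130-fold under Tj and 1.51-fold under nos. Burdock, an element of the germline, had 1.36-fold and 5.09-fold.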

How the data were processed

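The authors' deposited tables give RPM, on the reads-per-million scale, per transposon family for RNA-seq and GRO-seq by strand and for H3K9me3 and input ChIP-seq, with the ratio of H3K9me3 to input, per the file headers. Further deposited tables hold the authors' H3K9me3 fold (a ratio), with log2 values and p-values, and their piwi over white ratio of H3K9me3 enrichments. The 6 columns of scaled reads in those tables name no sample and were left out. The submitters' processing notes name build dm3 and the tools Bowtie2 2.0.0 (all assays), TopHat2 2.0.5 (RNA-seq), DESeq 1.10.1 (RNA-seq, GRO-seq) and SICER 1.1 (ChIP-seq). What each tool did was not given in the sources used here.

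Samples were grouped by title, 1 per group. The 5 members and all lists were chosen with earlier results of these data known. Ratios were log2 of RPM + 1 in piwi over white knockdown. An element entered when its 4 values on a strand averaged 1 RPM or more, and 2-fold was the size counted. In ChIP-seq, elements with under 100 reads in any library of a driver were left out. Their read numbers followed from library totals, in steps of 1000 reads, for which every value was a whole number within 1e-06 reads. The 95% interval took the summed reciprocals of the 4 read numbers as the variance of the log ratio. It was run on simulated reads drawn with counting error only. That run checks the calculation and says nothing about spread between libraries. Named elements were the 5 members, the 3 nearest elements to each over the 4 sense log2 ratios, and mdg1, ZAM and Burdock. Python 3.11.15 with numpy 2.4.6 and pandas 2.3.3 was used. No sequence of these elements was used here. Alternatives were other pseudocounts, filters, read minimums and library totals, centring, H3K9me3 without input and, chosen after seeing the data, division by the input ratio.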

Additional observations from a re-analysis of the deposited data

How the results depend on the processing

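No paired analysis was possible because each group had 1 sample. With pseudocounts of 0.1 and 5 RPM, without the filter and with a mean of at least 10 RPM, every count of members at least 2-fold higher stayed within 1.5 times its value, though the antisense steady-state count under nos was 2 with 5 RPM, without Stalker. Division by the input ratio (chosen after seeing the data) was run for the sense strand, where it changed no count. Centring on the median element left 2 members past 2-fold on the steady-state sense strand and 1 on the antisense strand under nos. The numbers of members with an H3K9me3 interval below 1 did not change with minimums of 20 or 300 reads. When input was left out, 2 members had such an interval for Tj and 2 for nos. Relative to the median element, 3 members had it for Tj and 1 for nos. The share of all elements with such an interval relative to the median element was not computed, so these centred counts have no background. With the scaling of the authors' fold the number under Tj was 0. Ratios that crossed 1 under Tj were 1.0 for Stalker, 1.06 for Stalker2 and 1.0 for Stalker4 without input, and with the authors' scaling 1.0 for blood, 1.04 for Stalker and 1.03 for Stalker4. Under nos they were 1.16 for Stalker and 1.18 for Stalker2 without input, and after centring 1.04 for ‘412’, 1.05 for Stalker and 1.0 for Stalker2. Stalker4 under nos, whose interval held 1, was at 1.19 without input and 1.07 after centring. The cause of these moves was not tested beyond the input ratios and scaling factors. The other totals apply to H3K9me3 alone, so no input ratio with other totals was computed. Without replicates, the spread between ovaries of one condition is unknown.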

Other observations

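A row named Stalker3T was not among the members. It was present in the GRO-seq and ChIP-seq tables at low levels. Its nascent sense RNA was 4.0 RPM in Tj piwi against 2.42 RPM in Tj white knockdown (1.46-fold on the RPM + 1 scale), and 8.14 RPM in nos piwi against 3.31 RPM in nos white knockdown (2.12-fold). Its antisense nascent RNA was 2.00-fold the control under Tj and 2.09-fold under nos. H3K9me3 over input of Stalker3T was 0.857 times the control under Tj (95% counting interval 0.604 to 1.22) and 1.13 times under nos (0.831 to 1.54), from 63 to 478 reads per library, so no difference was detectable at this depth.

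Antisense and sense steady-state RNA of HMS-Beagle, the element nearest to blood in its sense pattern, did not go together as they did for blood. Its antisense RNA was 924 RPM in Tj piwi against 1293 RPM in Tj white knockdown (0.715-fold), and 1164 RPM in nos piwi against 1009 RPM in nos white knockdown (1.15-fold). Antisense RNA of blood started much lower, at 15.9 RPM in Tj white and 16.8 RPM in nos white knockdown. On the higher level of HMS-Beagle the same gain in RPM would give a smaller ratio, and the part of this starting level in the contrast was not tested. For ‘297’, the element next to Stalker and Stalker4, antisense steady-state RNA was 1.40-fold under Tj and 0.964-fold under nos.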
